A study of Mus musculus with 143 samples.

Results

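Mouse oocytes rely on proteins that make small RNAs, load them, or hold the machinery together in germ granules, and the transcripts of 10 such genes are described here: Dicer1, Ago2, Piwil2, Ddx4, Mael, Mov10l1, Pld6, Tdrkh, Tdrd1 and Gtsf1. They were chosen by name for their function. All 10 were found among the 55573 gene IDs of each poly(A) library and the 55487 gene IDs of each RiboMinus library, and all 10 were abundant enough to be tested in each of 15 comparisons. In the RefSeq annotation of GRCm38.p6 (mm10) the siRNA genes span chr12:104687740-104751968 (Dicer1) and chr15:73101625-73184947 (Ago2). The enzymes and scaffolds of the piRNA pathway span chr14:70372477-70436898 (Piwil2), chr15:88982891-89055152 (Mov10l1), chr11:59783893-59787657 (Pld6), chr3:94413243-94434854 (Tdrkh), chr19:56826171-56870012 (Tdrd1) and chr15:103402458-103430445 (Gtsf1). Ddx4 spans chr13:112598333-112652633 and Mael chr1:166201385-166238744.

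The study removed Dis3, Exosc10 or both from oocytes of mutant mice made with CRISPR/Cas9. Dis3 and Exosc10 encode RNA-degrading subunits of the exosome, the complex that processes and destroys many nuclear and cytoplasmic RNAs. Libraries of poly(A) RNA from individual oocytes covered the germinal vesicle stage (GV, 8 control and 15 Dis3 cKO libraries), a stage labelled GV3h, the 3 hr oocytes of the growth protocol (8 and 16), and the metaphase II stage (MII, 8 and 16). Total RNA depleted of ribosomal RNA (RiboMinus, random-hexamer priming) came from adult GV oocytes, control or Dis3 cKO, and from oocytes labelled p20, read here as postnatal day 20 (the labels give no other age), either control, Dis3 cKO, Exosc10 cKO or dcKO, the combined knockout, with 8 libraries a group. GV and GV3h oocytes came from ovaries and were kept in culture in M2 medium, and MII eggs were taken from oviducts after superovulation. An ERCC spike-in mix went into each lysate. The labels name neither the driver of the conditional deletion nor the animal behind each oocyte, so p-values measure the spread between oocytes, some of which may share an animal.

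As background, PIWI proteins such as PIWIL2 carry piRNAs that direct the silencing of transposons, and the enzymes and scaffolds that make piRNAs gather on mitochondria and in germ granules, the dense RNA-protein bodies of germ cells. Mouse oocytes also hold a strong endogenous siRNA pathway, in which DICER1 cuts long double-stranded RNA and AGO2 uses the product to slice matching transcripts. Fertility of female mice depends on that siRNA pathway, whereas loss of many piRNA factors sterilises males and leaves females fertile.

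Promoters of 5 genes are printed because these genes carry the main patterns below: a fall of Tdrd1, Tdrkh and Gtsf1, a rise of Pld6, and stage- and knockout-dependent levels of Mael. Each is the 250 bases before the farthest-upstream start that the RefSeq promoter table lists for the gene, on the gene's own strand (GRCm38.p6). RefSeq's gene span can begin further upstream than that start. Capitals mark an E-box (CACGTG) or an E2F-type sequence (TCCCGC or its reverse complement).
Tdrd1: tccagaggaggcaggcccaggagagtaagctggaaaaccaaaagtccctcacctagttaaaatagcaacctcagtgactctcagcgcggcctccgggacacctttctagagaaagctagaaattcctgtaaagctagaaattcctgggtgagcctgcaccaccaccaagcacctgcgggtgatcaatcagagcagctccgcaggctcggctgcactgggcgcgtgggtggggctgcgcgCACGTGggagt
Tdrkh: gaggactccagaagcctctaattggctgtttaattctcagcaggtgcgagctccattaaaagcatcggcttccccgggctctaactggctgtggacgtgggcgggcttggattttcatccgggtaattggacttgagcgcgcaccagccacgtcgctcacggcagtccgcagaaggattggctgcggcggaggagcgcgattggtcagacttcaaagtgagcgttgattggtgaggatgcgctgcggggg
Gtsf1: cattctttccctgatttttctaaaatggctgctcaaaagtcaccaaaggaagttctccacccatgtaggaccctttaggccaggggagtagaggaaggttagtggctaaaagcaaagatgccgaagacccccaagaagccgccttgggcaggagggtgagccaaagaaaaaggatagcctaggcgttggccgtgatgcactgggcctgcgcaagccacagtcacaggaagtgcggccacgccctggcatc
Pld6: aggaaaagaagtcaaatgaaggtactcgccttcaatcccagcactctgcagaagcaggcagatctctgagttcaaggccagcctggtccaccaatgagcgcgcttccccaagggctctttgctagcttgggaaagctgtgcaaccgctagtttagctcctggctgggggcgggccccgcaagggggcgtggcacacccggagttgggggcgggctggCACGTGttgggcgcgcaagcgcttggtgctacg
Mael: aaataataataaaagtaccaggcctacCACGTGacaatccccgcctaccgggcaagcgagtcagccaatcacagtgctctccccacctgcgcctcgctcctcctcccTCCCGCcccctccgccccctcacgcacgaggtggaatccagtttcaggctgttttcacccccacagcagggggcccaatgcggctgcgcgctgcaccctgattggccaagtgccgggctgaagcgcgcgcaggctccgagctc

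These windows lie at chr19:56825959-56826208 for Tdrd1 (plus strand), chr3:94412994-94413243 for Tdrkh (plus), chr15:103430428-103430677 for Gtsf1 (minus), chr11:59787658-59787907 for Pld6 (minus) and chr1:166238745-166238994 for Mael (minus). The last 38 bases of the Tdrd1 window, 18 of the Gtsf1 window and 1 of the Tdrkh window lie inside the gene span that RefSeq gives. The RefSeq promoter table held windows for 8 of the 10 genes, without Ago2 and Piwil2. Of the 3 windows not printed, that of Ddx4 lies wholly inside the gene span (250 of 250 bases), that of Mov10l1 in 103 bases and that of Dicer1 in 16, and they count in the tallies below as windows before a listed start. Searched on either strand, CACGTG occurred in 5 of those 8 windows and in 6.02% of all 32841 windows of the same length. It stood 11 to 6 bases before the start of Tdrd1, 33 to 28 bases before that of Pld6 and 223 to 218 bases before that of Mael. TCCCGC occurred in 3 of 8 windows against 16.9% of all, and GGGCGG, an Sp1-type sequence that overlaps TCCCGC in Dicer1, Ddx4 and Mael, in 6 of 8 against 32.7%. TATAAA and TGACGTCA occurred in 0 of 8, against 12.4% and 1.55% of all windows. The number of CpG sites ran from 7 in Gtsf1, 11 in Tdrd1, 14 in Pld6, 18 in Mael and 19 in both Tdrkh and Mov10l1 to 31 in Ddx4 and 39 in Dicer1, against a median of 6 over all windows. These are descriptions of the letters, and E-boxes were found both before a gene that fell (Tdrd1) and before a gene that rose (Pld6).

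Gene counts summed to between 4843964 and 15412200 reads per poly(A) library and between 8492102 and 35429028 per RiboMinus library. Dis3 fell in every Dis3 cKO and dcKO comparison with controls (log2 fold changes of -2.18 in GV, -2.57 in GV3h, -3.63 in MII, -3.13 in adult RiboMinus, -2.74 at p20 and -2.25 in the dcKO), and Exosc10 fell in the Exosc10 cKO (-5.22) and the dcKO (-4.01). Exosc10 was also lower in the GV3h Dis3 cKO (-0.53, adjusted p = 0.0026). All 10 oocyte markers examined averaged 1 CPM (reads of a gene per 1e+06 gene reads) or more in each of the 12 groups. Their levels moved, with 6 of 10 higher in the MII Dis3 cKO (median log2 fold change 0.43), 2 higher and 5 lower in the adult Dis3 cKO (-0.37) and 4 higher and 4 lower in the dcKO (0.23). Of 10 granulosa cell markers, the summed level did not overlap between MII controls (73.7 to 183 CPM) and MII Dis3 cKO oocytes (26.0 to 68.4 CPM, with Foxl2, Inha and Hsd17b1 at 0), nor between p20 controls (58.15 to 70.0 CPM) and the dcKO (23.1 to 43.4 CPM). It overlapped in GV (56.5 to 134 CPM in controls, 30.0 to 143 CPM in Dis3 cKO) and in adult RiboMinus libraries (36.4 to 64.75 and 25.7 to 58.2 CPM). Single markers moved both ways. Of 9 tested, 2 rose (Cyp11a1 and Star) and 2 fell in the GV Dis3 cKO, 2 rose (Inhba and Star) and 1 fell in GV3h, and 1 rose (Fshr) and 5 fell in MII, while in the dcKO 1 of 7 fell (Cyp19a1). The part of these cells in the results below was not tested. MII Dis3 cKO oocyte 15 stood apart, with 14.4 gene reads per ERCC read against a group mean of 55.5 ± 15.3 (SD, n = 16).

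Levels are given as CPM scaled by TMM, which expresses a transcript as a share of the RNA in its library. A gene was called when edgeR's quasi-likelihood test gave a Benjamini-Hochberg adjusted p below 0.05 over all genes tested. Levels are not compared between genes, since exon lengths were not used here. Scaling to the ERCC reads instead measures a transcript per oocyte lysate. It moved the median of all genes by more than 0.1 (log2) in 11 of the 15 comparisons. A fall in CPM and a fall per oocyte are therefore kept apart below. Under either scaling, poly(A) libraries count only poly(A) RNA, and the RiboMinus libraries held no MII eggs. From GV to MII, a change in amount and a change in poly(A) tails cannot be told apart.

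Among the 10 genes, the Dis3 cKO called 4 in GV oocytes (Pld6 higher, Ago2, Tdrd1 and Tdrkh lower), where 21.9% of all 17389 genes tested were called. In GV3h oocytes 6 were called (Ddx4, Piwil2 and Pld6 higher, Gtsf1, Tdrd1 and Tdrkh lower) against 38.6% of all genes. In MII eggs 7 were called (Mael, Mov10l1 and Pld6 higher, Ago2, Dicer1, Tdrd1 and Tdrkh lower) against 42.1%. The median log2 fold change of the 10 genes was -0.19, -0.10 and -0.10 at the 3 stages, beside 0.04, 0.07 and 0.16 for all genes.

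In RiboMinus libraries the adult Dis3 cKO called Tdrd1 and Tdrkh, both lower, with 28.1% of genes called overall. At p20 the Dis3 cKO called 0 of the 10 by edgeR and 0 by DESeq2, with 3 (Gtsf1, Tdrd1 and Tdrkh) at an unadjusted p under 0.05 and 7.37% of all genes called. The Exosc10 cKO called Mael, higher, and Tdrkh, lower, against 7.45% overall. The dcKO called 7 (Ago2, Ddx4, Piwil2 and Pld6 higher, Gtsf1, Tdrd1 and Tdrkh lower) against 53.7%. All 7 were also called in the direct comparison of the dcKO with the Dis3 cKO (8 called, Mov10l1 being the other, against 51.5% overall) and with the Exosc10 cKO (8 called, with Mael lower, against 49.2%). Under ERCC scaling no gene of the 10 was called lower in the dcKO than in the Dis3 cKO (Gtsf1 -0.17, Mov10l1 -0.38, Tdrd1 -0.32 and Tdrkh -0.29) and 5 were called higher, where 36.9% of all genes were called. Against the Exosc10 cKO, Ago2 (0.60) and Pld6 (0.67) were then not called. The 3 p20 knockouts share their 8 controls.

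**Figure D1:**
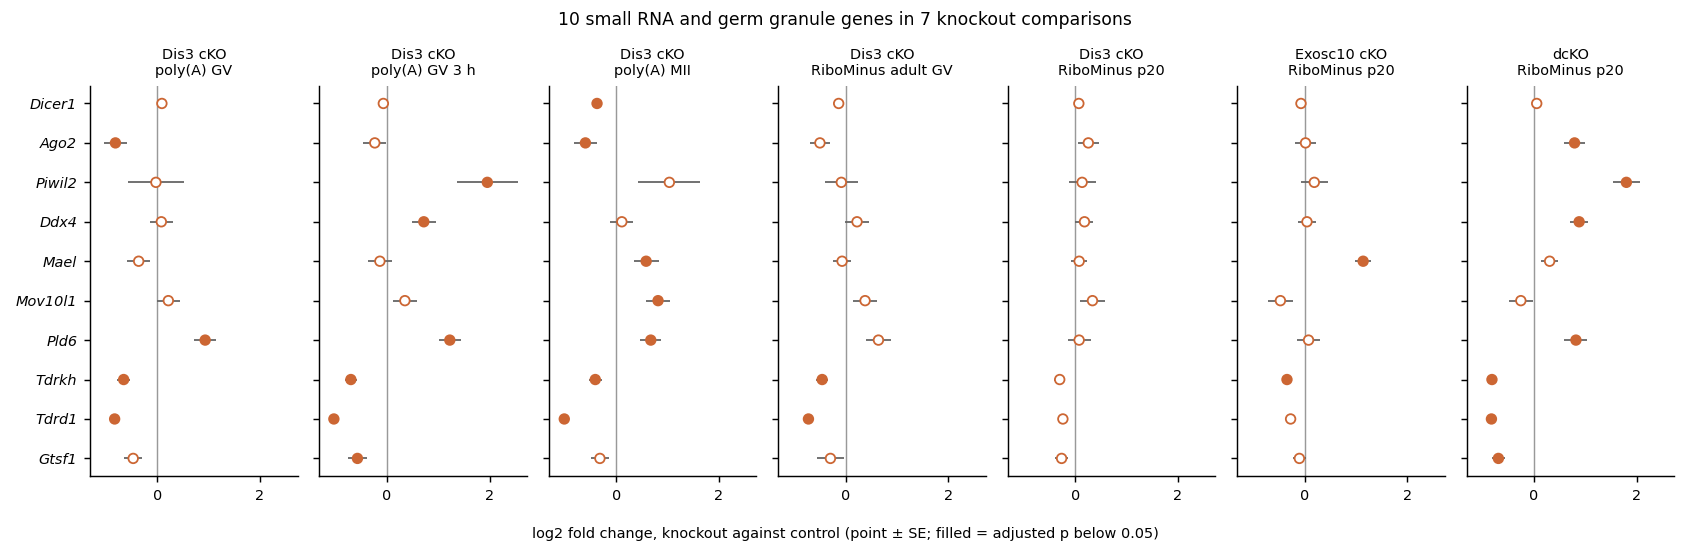
Log2 fold change (x axis, point ± SE) of each of the 10 genes (y axis) in 7 comparisons of a knockout with its controls; filled points have an adjusted p below 0.05. Tdrd1 and Tdrkh lie left of 0 in all 7 panels, Piwil2 reaches 1.96 in GV3h and 1.80 in the dcKO, and Mael reaches 1.14 in the Exosc10 cKO.

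Tdrd1, which encodes a tudor-domain scaffold that binds methylated PIWI proteins in germ granules, fell at every adult and poly(A) stage of the Dis3 cKO. In GV controls it lay at 322.4, 367.7 and 416.0 CPM (lowest, median and highest of 8), and in GV Dis3 cKO oocytes at 150.2, 193.6 and 258.4 CPM (15 libraries). In GV3h oocytes it lay at 345.8, 377.5 and 425.7 CPM in controls and at 135.3, 172.7 and 234.3 CPM in the knockout. MII controls held 204.1, 248.0 and 344.2 CPM and MII knockout eggs 95.5, 129.8 and 173.4 CPM. At all 3 stages every knockout oocyte was below every control. The share of all genes without overlap between a knockout and its controls, or between stages, was not counted, for Tdrd1 or the genes below. The shares of all genes called at these stages were 21.9%, 38.6% and 42.1%.

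The log2 fold change of Tdrd1 was -0.83 (SE 0.10, adjusted p = 5.0e-10) in GV, -1.03 (SE 0.10, adjusted p = 1.0e-13) in GV3h and -1.01 (SE 0.10, adjusted p = 9.1e-14) in MII. The effects at MII and GV differed by -0.18 (SE 0.14), which did not pass the test (adjusted p = 0.436). In adult RiboMinus libraries the 8 controls lay between 631.1 and 708.4 CPM. The 4 Dis3 cKO oocytes with the title tag AM1713 held 261.4, 309.3, 312.1 and 435.5 CPM, and the 4 tagged AM1757 held 467.1, 528.0, 496.1 and 470.1 CPM. Both tags were below all controls, and AM1713 was below AM1757. The fold change over the 8 was -0.72 (SE 0.115, adjusted p = 1.4e-04), with -1.04 from AM1713 alone and -0.49 from AM1757 alone. With counts summed per tag, which leaves 2 values a group, Tdrd1 (-0.74) was not called. What the tags stand for is not given in the labels. The share of all genes that differ between these adult tags was not counted, for Tdrd1 or the genes below.

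At p20 Tdrd1 averaged 695.8 ± 37.7 CPM in controls, 587.5 ± 67.1 in the Dis3 cKO, 577.1 ± 63.8 in the Exosc10 cKO and 388.6 ± 73.6 in the dcKO (SD, n = 8 each). Either knockout alone overlapped the controls, and neither change was called (-0.24, adjusted p = 0.127, and -0.27, adjusted p = 0.0714). Both were called when only the knockout and its controls were fitted (-0.24, adjusted p = 0.0217, and -0.26, adjusted p = 0.0199). The dcKO libraries, from 252.4 to 485.8 CPM, were all below the 16 libraries of controls and Dis3 cKO and below the Exosc10 cKO, whose lowest library was at 492.5 CPM. Within the dcKO, title tag 1 (252.4 to 381.5 CPM) lay below tag 2 (415.5 to 485.8 CPM). Tdrd1 fell by 0.83 (SE 0.095, adjusted p = 9.4e-09) in the dcKO against controls, by 0.59 against the Dis3 cKO (adjusted p = 4.0e-06) and by 0.56 against the Exosc10 cKO (adjusted p = 1.1e-05), on the log2 scale. The difference from the Dis3 cKO was not called under ERCC scaling (-0.32, adjusted p = 0.233). The Dis3 effect on Tdrd1 was larger in adult than in p20 oocytes by a test of that difference (-0.50, SE 0.15, adjusted p = 0.0258, where 9.32% of genes were called). That difference was -0.74 but not called under ERCC scaling, and -0.50 but not called with counts summed per tag.

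Tdrkh encodes another tudor-domain protein, which anchors PIWI proteins to mitochondria while piRNA ends are trimmed, and it moved with Tdrd1. GV controls lay at 67.6, 76.6 and 86.3 CPM (lowest, median, highest) and GV Dis3 cKO oocytes at 38.5, 48.5 and 61.8 CPM. GV3h controls lay at 69.7, 76.6 and 96.1 CPM and the knockout at 26.7, 49.9 and 64.5 CPM. The groups did not overlap at these 2 stages. At MII they did, with 27.02, 37.6 and 66.2 CPM in controls and 20.3, 28.5 and 53.7 CPM in the knockout. On the log2 scale Tdrkh changed by -0.65 (SE 0.12, adjusted p = 2.6e-05), -0.70 (SE 0.12, adjusted p = 3.0e-06) and -0.41 (SE 0.12, adjusted p = 0.0053). The MII call was lost under ERCC scaling (-0.08) and when only oocytes numbered 9 to 16 in their titles stood for the knockout (-0.275).

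In adult RiboMinus controls Tdrkh lay between 65.8 and 79.0 CPM. The AM1713 knockout oocytes held 37.9, 38.3, 38.7 and 50.5 CPM, and the AM1757 oocytes 62.4, 55.0, 66.9 and 68.7 CPM. AM1713 was below all controls, while AM1757 reached into their range. The fall of 0.46 on the log2 scale (SE 0.12, adjusted p = 0.0082) rested on AM1713: it was -0.795 with that tag alone and -0.21, not called, with AM1757 alone. Summed per tag it was -0.485 and not called. At p20, controls averaged 80.8 ± 6.72 CPM, the Dis3 cKO 65.4 ± 3.72, the Exosc10 cKO 63.8 ± 9.26 and the dcKO 45.45 ± 9.62 (SD, n = 8 each). The Dis3 cKO (57.25 to 69.1 CPM) did not overlap the controls (72.8 to 94.6 CPM), yet its log2 fold change of -0.30 missed the threshold over all genes (adjusted p = 0.0679), and it passed when only these 2 groups were fitted (adjusted p = 0.0053). The Exosc10 cKO change of -0.34 was called at adjusted p = 0.0326, a call that was lost under ERCC scaling, without the filter on low counts, within either tag and with counts summed per tag. The dcKO (34.35 to 62.3 CPM) lay below all controls, with a fall of 0.82 (SE 0.10, adjusted p = 5.5e-08). Reads of Tdrkh may include some of Oaz3, which overlaps it in RefSeq, because strand use in counting is not given in the sources used here.

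**Figure D2:**
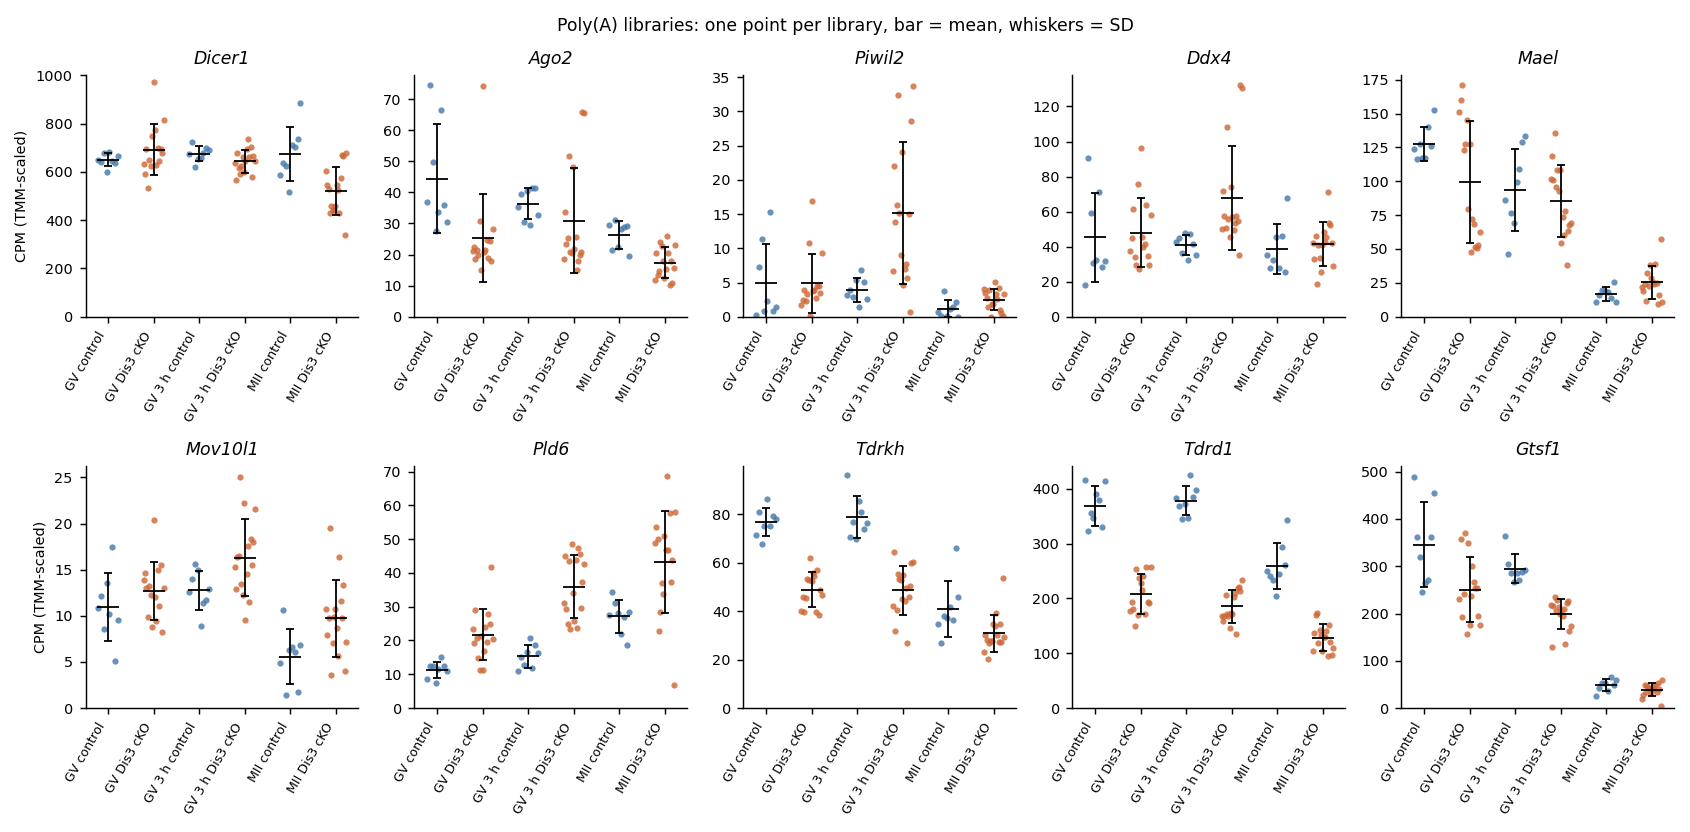
CPM (y axis, from 0, TMM-scaled) of each gene in poly(A) libraries by stage and genotype; each point is a library, the bar is the mean and the whiskers the SD. Tdrd1 in Dis3 cKO oocytes stays below the controls at each stage, Pld6 is higher in the knockout, and Gtsf1 and Mael are lower in MII eggs of both genotypes.

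Gtsf1 encodes a small zinc-finger protein that works with PIWI proteins as they slice their targets. Its poly(A) level differed between GV oocytes and MII eggs, which were also collected in different ways. GV controls lay at 245.9, 340.6 and 488.3 CPM and MII controls at 25.95, 50.6 and 65.55 CPM (lowest, median, highest). Every MII egg was below every GV oocyte, in controls and in the knockout (155.8 to 370.4 CPM in GV, 4.40 to 59.2 CPM in MII). From GV to MII the log2 fold change was -2.85 (SE 0.225, adjusted p = 2.3e-18) in controls, a 7.20-fold lower share, and -2.70 (SE 0.16, adjusted p = 5.4e-25) in the Dis3 cKO. Under ERCC scaling it was -4.71 and -3.80.

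The Dis3 cKO lowered Gtsf1 in GV3h oocytes, where controls lay at 267.3, 286.9 and 363.5 CPM and the knockout at 129.3, 207.3 and 235.9 CPM without overlap (-0.57, SE 0.18, adjusted p = 0.0078). In GV (-0.47, adjusted p = 0.0516) and MII (-0.32, adjusted p = 0.158) the groups overlapped and the change was not called by edgeR. The GV change was called by DESeq2 (-0.46, adjusted p = 0.0490), under ERCC scaling (-0.78, adjusted p = 0.0110) and when only these 2 groups were fitted (-0.47, adjusted p = 0.0232). In adult RiboMinus libraries the tags differed in mean (64.5 CPM in AM1713 and 138.1 CPM in AM1757) but overlapped. AM1713 oocytes held 62.3, 31.4, 45.5 and 118.9 CPM and AM1757 oocytes 151.7, 94.2, 143.5 and 163.2 CPM, beside controls from 93.9 to 151.3 CPM. The fold change was -0.30 (not called) over both tags, -0.98 (adjusted p = 0.0016) under ERCC scaling and -0.945 (adjusted p = 0.0082) with AM1713 alone. At p20 the dcKO, at 56.4, 71.6 and 86.0 CPM, lay below all controls, at 91.15, 120.5 and 138.8 CPM, with a log2 fold change of -0.69 (SE 0.13, adjusted p = 2.5e-05). Neither knockout alone was called for Gtsf1 (-0.26 in the Dis3 cKO and -0.10 in the Exosc10 cKO). The Dis3 cKO change was called under ERCC scaling (-0.58, adjusted p = 0.0194) and when only these 2 groups were fitted (-0.26, adjusted p = 0.0371). RefSeq places Gm52195 over part of Gtsf1.

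Pld6 encodes the endonuclease of the outer mitochondrial membrane that cuts piRNA precursors, and it was the only gene of the 10 called higher at all 3 poly(A) stages of the Dis3 cKO. In GV controls it lay at 7.40, 11.9 and 15.2 CPM and in the knockout at 11.25, 20.8 and 41.8 CPM. In GV3h oocytes the groups did not overlap, with 10.8, 15.8 and 20.7 CPM in controls and 23.3, 35.7 and 48.5 CPM in the knockout. MII controls held 18.6, 27.8 and 34.5 CPM and MII knockout eggs 6.87, 46.8 and 68.6 CPM, the lowest of these being oocyte 15. Pld6 changed on the log2 scale by 0.93 (SE 0.21, adjusted p = 4.8e-04), 1.23 (SE 0.21, adjusted p = 2.5e-06) and 0.67 (SE 0.20, adjusted p = 0.0053). Under ERCC scaling the GV value was 0.67 and not called.

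Pld6 was also the only one of the 10 called higher as a share of the RNA in MII than in GV controls (1.25, SE 0.235, adjusted p = 4.6e-06), as in the knockout (0.99, adjusted p = 3.4e-07). Both stage differences changed sign under ERCC scaling, to -0.61 and -0.22, and neither was then called. In RiboMinus libraries Pld6 was low, from 5.51 to 9.935 CPM in adult controls. AM1713 knockout oocytes held 16.3, 14.5, 24.5 and 6.29 CPM and AM1757 oocytes 8.21, 9.59, 8.87 and 9.03 CPM, so that 3 oocytes of AM1713 were above every control and AM1757 was within their range. The fold change was 0.64 over both tags (adjusted p = 0.0629, not called by edgeR; 0.63, adjusted p = 0.040, by DESeq2), 0.61 (adjusted p = 0.0489) in a fit of all 6 RiboMinus groups and 0.97 with AM1713 alone (adjusted p = 0.0104). At p20 the dcKO held 11.9, 18.3 and 29.9 CPM against 7.48, 9.915 and 16.0 CPM in controls (0.81, SE 0.22, adjusted p = 0.0024). That call was lost under ERCC scaling (0.71) and with the second title tag alone (0.57). Each knockout alone stood at 0.08 with adjusted p = 0.898 (Dis3 cKO) and 0.895 (Exosc10 cKO).

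Mov10l1, the RNA helicase that feeds precursors into primary piRNA production, was among the lowest-counted of the 10, down to 14 reads in a library of MII controls. MII controls lay at 1.36, 6.17 and 10.6 CPM and MII knockout eggs at 3.57, 9.78 and 19.5 CPM, overlapping widely. The log2 fold change of 0.81 (SE 0.24, adjusted p = 0.0039) was not called when only these 2 groups were fitted (0.79). Mov10l1 changes of 0.22 in GV and 0.35 in GV3h were not called (adjusted p = 0.562 and 0.219). From GV to MII it fell by 0.98 (SE 0.27, adjusted p = 0.0011) in controls and by 0.38 in the knockout (adjusted p = 0.070, not called), and the difference between these did not pass the test (0.60, adjusted p = 0.226). In adult RiboMinus libraries the Dis3 cKO change of 0.38 was not called by edgeR (adjusted p = 0.2275). With AM1713 alone Mov10l1 was called higher, at 12.05 ± 4.28 CPM beside 7.675 ± 1.57 in AM1757 (SD, n = 4 each). At p20 Mov10l1 averaged 8.925 ± 3.47 CPM in controls, 11.25 ± 3.42 in the Dis3 cKO, 6.46 ± 2.32 in the Exosc10 cKO and 7.43 ± 1.99 in the dcKO (SD, n = 8 each). Only the dcKO against the Dis3 cKO was called (-0.59, adjusted p = 0.03675). That call was lost without Dis3 cKO library 1_2 (-0.54), under ERCC scaling (-0.38), without the filter on low counts (-0.57), within tag 1 (-0.67) or tag 2 (-0.52) and with counts summed per tag (-0.66).

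**Figure D3:**
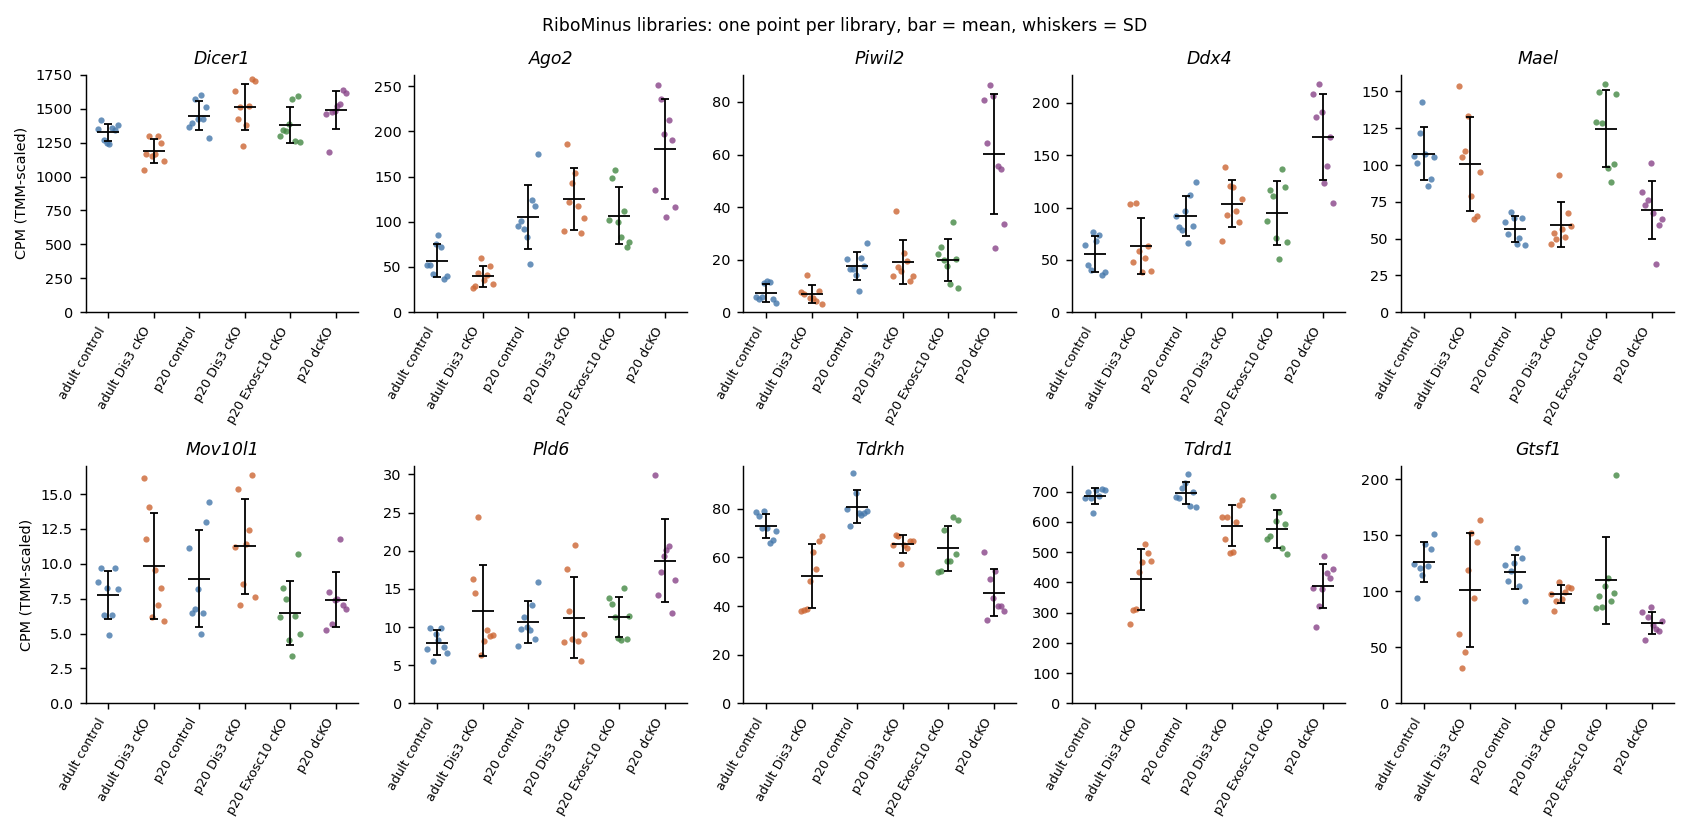
CPM (y axis, from 0, TMM-scaled) of each gene in RiboMinus libraries by age and genotype; each point is a library, the bar is the mean and the whiskers the SD. Piwil2, Ddx4 and Ago2 are highest in the dcKO, Mael in the p20 Exosc10 cKO and in adult oocytes, and Tdrd1 and Tdrkh are lowest in the dcKO and in part of the adult Dis3 cKO.

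Mael, the HMG-domain protein Maelstrom of nuage and nucleus, differed by stage, by knockout and between subsets of oocytes of the same group. GV controls lay at 116.7, 124.8 and 152.7 CPM and MII controls at 11.04, 17.2 and 25.8 CPM (lowest, median, highest). No control MII egg reached a control GV oocyte. In the Dis3 cKO the stages overlapped, with 47.95 to 170.7 CPM in GV and 9.18 to 57.0 CPM in MII. The log2 fold change from GV to MII was -2.92 (SE 0.29, adjusted p = 2.4e-14) in controls, 7.54-fold, and -1.97 (SE 0.20, adjusted p = 2.8e-14) in the Dis3 cKO, 3.92-fold. Scaled to ERCC reads, the Mael values were -4.80 and -3.18.

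MII knockout eggs held 9.18, 24.2 and 57.0 CPM of Mael, the highest being oocyte 15. The difference from controls was 0.58 (SE 0.24, adjusted p = 0.0445), and it was 0.46 and not called without oocyte 15 (adjusted p = 0.103). The call was also lost when only these 2 groups were fitted (0.56, adjusted p = 0.112) and without the filter on low counts (0.54, adjusted p = 0.0862). The Dis3 effect at MII differed from that at GV by 0.94 (SE 0.33, adjusted p = 0.0453, with 13.2% of genes called in that test). This difference was not called without oocyte 15 (0.82), without the filter (0.92) or with numbers 1 to 8 alone (0.47).

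The GV Dis3 cKO oocytes fell into a high and a low set for Mael that followed their title numbers. Oocytes numbered 1 to 8 held 79.7, 136.5 and 170.7 CPM, and those numbered 10 to 16 held 47.95, 53.1 and 72.3 CPM, with no overlap. The first set spanned the control range, and the second lay wholly below it. In GV3h oocytes the same numbers gave 92.9, 104.9 and 135.4 CPM and 38.4, 65.5 and 78.1 CPM, again without overlap, beside controls from 46.05 to 133.1 CPM. In MII eggs the sets averaged 24.9 ± 8.27 and 25.8 ± 15.8 CPM (SD, n = 8 each). Fitted over all GV oocytes, the Mael change was -0.36 and not called (adjusted p = 0.277). With numbers 1 to 8 it was 0.09 (not called), and with 9 to 16 it was -1.13 (adjusted p = 3.9e-04). For GV3h the values were 0.21 (not called) and -0.61 (adjusted p = 0.0341). The labels do not say what the numbers stand for, and all controls are numbered 1 to 8. No GV Dis3 cKO library of the series is numbered 9. Of all 17389 genes tested, 1.14% in GV and 1.85% in GV3h had no overlap between these subsets, and 0.167% (22 higher and 7 lower in the lower numbers) had none at both stages in the same direction. Mael was the only one of the 10 among them at either stage.

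At p20 Mael was called higher in the Exosc10 cKO, and with all libraries fitted it was not called in the Dis3 cKO or the dcKO. Controls held 45.3, 57.3 and 68.15 CPM, the Dis3 cKO 46.3, 54.9 and 93.0 CPM, the Exosc10 cKO 88.6, 128.7 and 155.4 CPM and the dcKO 33.0, 69.9 and 101.4 CPM. Every Exosc10 cKO library was above every control. The log2 fold change was 1.14 (SE 0.16, adjusted p = 5.2e-06), 2.20-fold, and it was 1.19 with the first title tag and 1.09 with the second. In the dcKO Mael was at 0.30 against controls (adjusted p = 0.107, not called), and it was called without dcKO library 2_2 (0.39, adjusted p = 0.02215) and with the first title tag alone (0.44, adjusted p = 0.0401). It was at -0.84 against the Exosc10 cKO (SE 0.16, adjusted p = 5.0e-05). Adult GV controls held 85.75, 105.9 and 142.6 CPM, all above the p20 controls. That rise of 0.93 (SE 0.17, adjusted p = 6.7e-05, with 19.1% of genes called) turned to -0.75 under ERCC scaling (adjusted p = 0.0013) and was not called with counts summed per tag (0.965). The adult Dis3 cKO tags differed here too. AM1713 oocytes held 153.9, 105.3, 109.8 and 133.0 CPM and AM1757 oocytes 78.95, 63.2, 65.2 and 95.5 CPM. Mael was not called over both tags (-0.07) but was under ERCC scaling (-0.64, adjusted p = 0.0281), while AM1757 alone gave -0.51 (adjusted p = 0.0134).

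Piwil2, Ddx4 and Ago2 varied together from oocyte to oocyte. PIWIL2 is the PIWI protein that receives primary piRNAs, DDX4 is the DEAD-box helicase known as vasa, and AGO2 is the slicing Argonaute of the siRNA and microRNA pathways. As a description over 71 poly(A) libraries, Pearson's r of deviations from the group mean in log2(CPM + 1) was 0.64 for Ago2 and Piwil2, 0.62 for Piwil2 and Ddx4 and 0.53 for Ago2 and Ddx4. Over 48 RiboMinus libraries the same pairs gave 0.69, 0.82 and 0.57. Both genes of a pair share a library and its depth, and the deviations were not taken within title tags. Pairs with genes other than the members were not examined in this way. GV controls 2, 3 and 6 were the 3 highest of 8 for each gene, with 7.28, 11.3 and 15.3 CPM of Piwil2 against at most 2.31 CPM in the other 5. GV knockout oocyte 8 was highest of its 15 for all 3 genes, with 16.95 CPM of Piwil2, 96.4 CPM of Ddx4 and 74.05 CPM of Ago2. The GV3h knockout oocytes 5, 8, 15 and 16 held the 4 highest values of each gene.

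**Figure D4:**
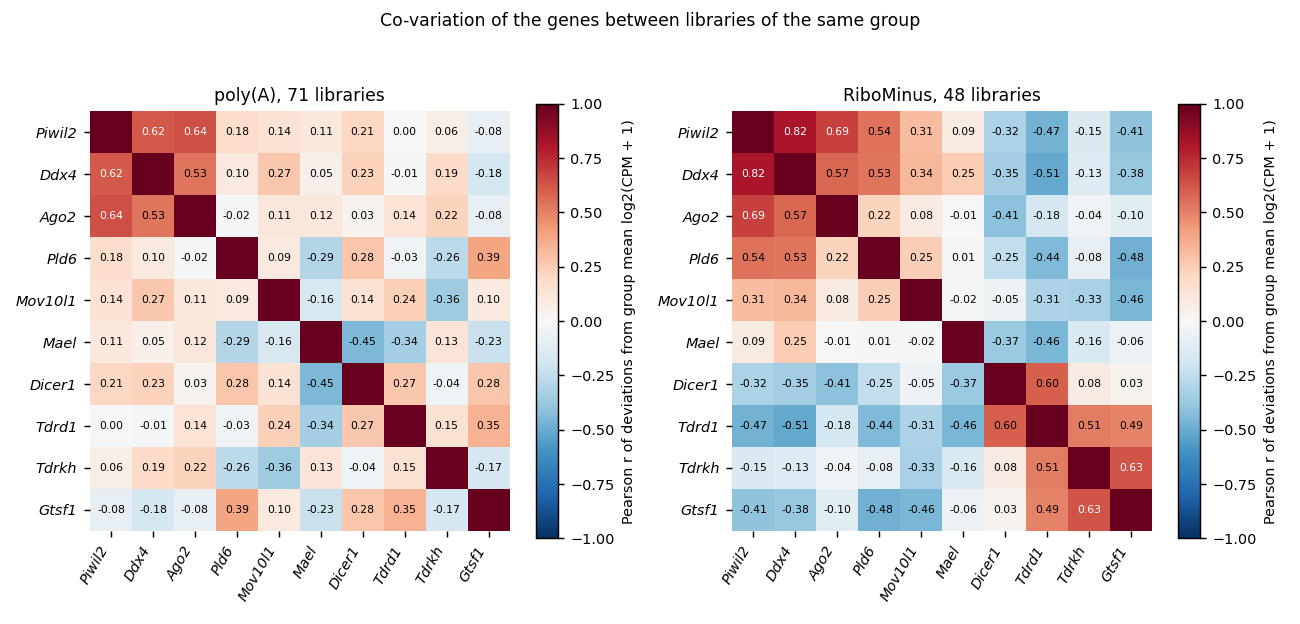
Pearson's r between genes (rows and columns, colour scale from -1 to 1) of deviations from the group mean in log2(CPM + 1), over 71 poly(A) libraries and 48 RiboMinus libraries. Piwil2, Ddx4 and Ago2 form a positive block in both panels (0.53 to 0.64, and 0.57 to 0.82). Tdrd1, Tdrkh and Gtsf1 form a positive block in the RiboMinus panel (0.49 to 0.63). In the RiboMinus panel Pld6 gave 0.54 with Piwil2, 0.53 with Ddx4 and 0.22 with Ago2. Dicer1 there gave 0.60 with Tdrd1, 0.08 with Tdrkh and 0.03 with Gtsf1. Poly(A) values were 0.15 for Tdrkh and Tdrd1, -0.17 for Tdrkh and Gtsf1 and 0.35 for Tdrd1 and Gtsf1. Deviations were not taken within title tags. Adult Dis3 cKO oocytes tagged AM1713 averaged 329.6, 41.3 and 64.5 CPM of Tdrd1, Tdrkh and Gtsf1. Those tagged AM1757 averaged 490.3, 63.3 and 138.1 CPM. The part of the tags was not tested.

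In GV3h oocytes Piwil2 lay at 1.41, 3.51 and 6.75 CPM in controls and at 0.63, 14.4 and 33.65 CPM in the Dis3 cKO (lowest, median, highest). The groups overlapped, and 12 of 16 knockout oocytes were above every control. The log2 fold change was 1.96 (SE 0.59, adjusted p = 0.0058). Ddx4 in the same oocytes lay at 32.5, 42.1 and 47.95 CPM in controls and at 35.05, 56.6 and 132.5 CPM in the knockout (0.72, SE 0.23, adjusted p = 0.0098). ERCC scaling gave 0.78 for Ddx4, not called (adjusted p = 0.05135). In GV, where controls spread from 0.31 to 15.3 CPM of Piwil2 and from 17.9 to 90.7 CPM of Ddx4, neither was called (-0.03 and 0.08), nor in MII (1.03, adjusted p = 0.162, and 0.11).

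Ago2 was called lower in the GV and MII Dis3 cKO of the poly(A) libraries, 2 stages at which neither Piwil2 nor Ddx4 was called. GV controls lay at 27.6, 36.4 and 74.65 CPM and the GV knockout at 14.95, 21.3 and 74.05 CPM, where 12 of 15 knockout oocytes were below every control. The log2 fold change was -0.81 (SE 0.22, adjusted p = 0.0043), and it was -1.03 without knockout oocyte 8. In MII it was -0.60 (SE 0.22, adjusted p = 0.0245), with 19.6, 28.6 and 31.2 CPM in controls and 10.1, 16.7 and 26.1 CPM in the knockout, and it was not called under ERCC scaling (-0.20). In GV3h it was -0.23 (adjusted p = 0.429, not called). From GV to MII, Ago2 fell in controls (-0.76, SE 0.26, adjusted p = 0.0102) and in the knockout (-0.54, SE 0.19, adjusted p = 0.0098). The latter call was lost without GV knockout oocyte 8 (-0.33, adjusted p = 0.0897). Piwil2 fell by 2.05 from GV to MII in controls (SE 0.67, adjusted p = 0.0068). It lay at 0.31, 1.86 and 15.3 CPM in GV and at 0.00, 0.97 and 3.69 CPM in MII. These ranges overlapped, and the high GV values came from the few controls named above as highest for Piwil2. In the knockout the Piwil2 change was -0.99 and was not called by edgeR (adjusted p = 0.0542).

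At p20 the dcKO raised all 3 of these genes. Piwil2 lay at 8.19, 16.9 and 26.4 CPM in controls and at 24.4, 60.1 and 86.3 CPM in the dcKO. The 4 dcKO libraries with tag 1 held 80.9, 64.5, 86.3 and 82.2 CPM and those with tag 2 held 24.4, 55.8, 54.3 and 33.7 CPM, so that tag 1 was above tag 2 throughout and 7 of the 8 were above every control. Of all 15882 genes tested, 15.3% had no overlap between the 2 tags of the dcKO. Among the 10 genes these were Piwil2, Ddx4, Dicer1, Mael and Tdrd1. Exosc10 reads left in these libraries also differed by tag, from 3.095 to 4.92 CPM in tag 1 and at 13.4, 8.99, 4.42 and 14.4 CPM in tag 2, in the same library order, and Exosc10 was higher in the dcKO than in the Exosc10 cKO (1.21, SE 0.38, adjusted p = 0.0088). Dis3 reads left in the dcKO ran the other way, at 4.24, 3.79, 2.18 and 3.56 CPM in tag 1. In tag 2 they were at 2.57, 2.80, 1.78 and 1.68 CPM, overlapping tag 1. The part of the Exosc10 or Dis3 reads in the tag difference was not tested. The fold change of Piwil2 was 1.80 (SE 0.27, adjusted p = 1.0e-06), with 2.25 from tag 1 and 1.23 from tag 2, each called. Against the Dis3 cKO it was 1.66 and against the Exosc10 cKO 1.61. Each knockout alone stood near controls (0.14 and 0.19, adjusted p = 0.840 and 0.748).

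Ddx4 lay at 65.7, 87.3 and 124.4 CPM in p20 controls and at 104.6, 176.8 and 218.0 CPM in the dcKO (0.88, SE 0.18, adjusted p = 8.0e-05), and Ago2 at 53.55, 97.8 and 175.1 CPM and at 105.5, 193.5 and 251.8 CPM (0.79, SE 0.20, adjusted p = 0.0013). Both overlapped the controls. With tag 1 alone they were 1.22 and 1.16 and called, and with tag 2 alone 0.50 and 0.43 and not called. The dcKO call of Ago2 was also lost under ERCC scaling (0.60). Its call against the Dis3 cKO was lost without dcKO library 1_2 (0.43) or 2_2 (0.48), within tag 2 (0.45) and with counts summed per tag (0.485). In adult controls the 3 genes were lower than at p20: Piwil2 at 3.37, 5.57 and 11.7 CPM (-1.25, SE 0.29, adjusted p = 0.0018), Ago2 at 37.0, 52.4 and 85.1 CPM (-0.88, SE 0.21, adjusted p = 0.0019) and Ddx4 at 35.3, 55.0 and 76.5 CPM (-0.73, SE 0.20, adjusted p = 0.0086). Counts summed per tag gave -1.19, -0.85 and -0.68, not called, where 1.04% of all genes were called. The adult Dis3 cKO changed none of the 3 by edgeR's test (Ago2 -0.50, adjusted p = 0.0645), while Ago2 was called by DESeq2 (-0.51, adjusted p = 0.0323) and under ERCC scaling (-1.075, adjusted p = 0.0055).

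Dicer1 encodes the RNase III that makes both microRNAs and siRNAs. Its poly(A) level lay at 599.8, 648.7 and 681.3 CPM in GV controls, 620.7, 675.2 and 722.2 CPM in GV3h controls and 518.6, 669.8 and 885.4 CPM in MII controls. GV (0.09) and GV3h (-0.07) knockout changes were not called. MII knockout eggs held 340.1, 526.5 and 676.9 CPM, overlapping the controls, and Dicer1 fell by 0.37 on the log2 scale (SE 0.08, adjusted p = 2.5e-04). This effect differed from that at GV by -0.46 (SE 0.12, adjusted p = 0.0061). Under ERCC scaling the Dicer1 change in MII was -0.01 and the difference from GV was 0.14, neither called. From GV to MII, Dicer1 in controls changed by 0.055, not called, as a share of the RNA and by -1.81 against ERCC reads. In RiboMinus libraries it ranged from 1046 to 1719 CPM over all 6 groups and was called in 0 of the 8 RiboMinus comparisons by edgeR and in 1 by DESeq2, the adult Dis3 cKO (-0.14, adjusted p = 0.0456). The adult change was also called under ERCC scaling (-0.65, adjusted p = 0.0109) and without Dis3 cKO library AM1713_3 (-0.17, adjusted p = 0.0353). By edgeR its unadjusted p was under 0.05 in that comparison (-0.14, adjusted p = 0.0733) and in the test of the Dis3 effect between ages (-0.23, adjusted p = 0.13).

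Across stages in controls, then, GV to MII was the comparison in which most of the 10 genes moved: 8 were called (Pld6 higher, Ago2, Gtsf1, Mael, Mov10l1, Piwil2, Tdrd1 and Tdrkh lower), where 58.5% of all genes were called. In the same controls 3 of 10 oocyte markers were called higher and 7 lower (median -1.96), and 2 of 9 granulosa markers higher and 5 lower (median -3.09); their part was not tested. In the Dis3 cKO 7 were called (Pld6 higher, Ago2, Dicer1, Gtsf1, Mael, Tdrd1 and Tdrkh lower) against 63.3%. The median of the 10 genes was -0.83 in controls and -0.60 in the knockout, beside -0.27 and -0.26 for all genes. From GV to GV3h in controls 0 of the 10 were called by edgeR and 0 by DESeq2, and 0 had an unadjusted p under 0.05, where 2.71% of genes were called. Gene reads per ERCC read averaged 137 ± 16.2 in GV controls and 46.0 ± 3.43 in MII controls (SD, n = 8 each). Under ERCC scaling 9 of the 10 were called lower in MII in either genotype, all but Pld6, where 87.8% (controls) and 83.6% (Dis3 cKO) of all genes were called, nearly all of them lower, so these counts are near the background. In the same way the adult controls had 403 ± 48.5 gene reads per ERCC read and the p20 controls 1267 ± 178, and all 10 genes were called lower in adult oocytes under ERCC scaling, where 86.1% of all genes were called (14797 of 17267 tested were lower), so that this too is near the background. As shares of the RNA 3 were lower and 1 higher, where 19.1% were called.

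**Figure D5:**
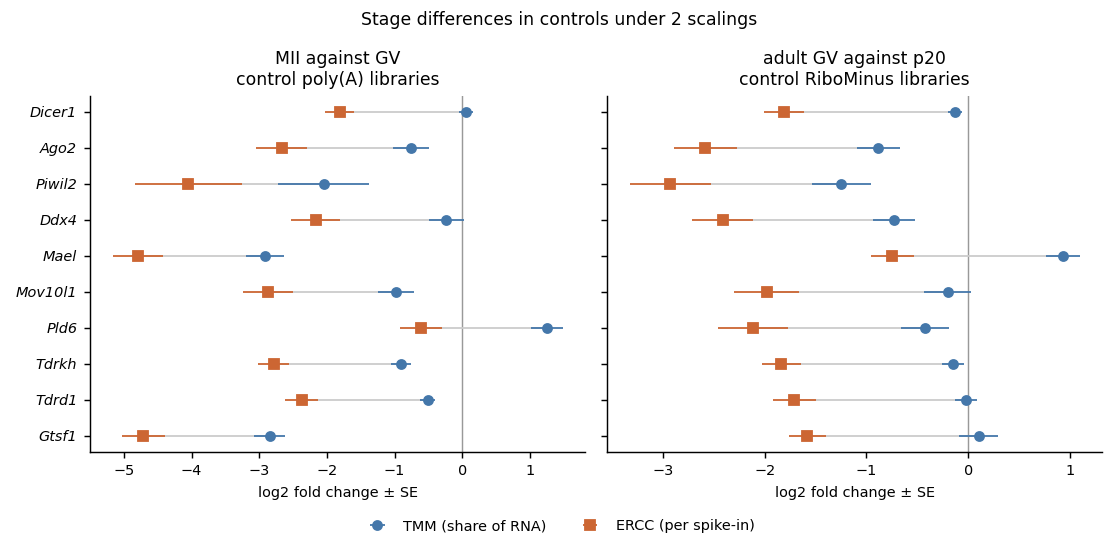
Log2 fold change (x axis, point ± SE) of each gene (y axis) between stages in controls, with TMM scaling (circles, share of the RNA) and ERCC scaling (squares, per spike-in read). Pld6 in the left panel moves from 1.25 to -0.61 and Mael in the right panel from 0.93 to -0.75.

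Other genes of these pathways were examined from lists set by function. Of 13 further genes of the microRNA and siRNA machinery, 3 changed in the GV Dis3 cKO, 4 in GV3h, 6 in MII and 4 in adult RiboMinus libraries, where 21.9%, 38.6%, 42.1% and 28.1% of all genes were called, so that these counts are near the background. Their medians were 0.14, 0.17, 0.15 and -0.10 in that order, beside 0.04, 0.07, 0.16 and 0.03 for all genes. Tnrc6b, a scaffold that joins Argonautes to the deadenylases, fell in each (-0.89 in GV, -0.73 in GV3h, -1.08 in MII and -0.84 in adult). Its paralog Tnrc6a rose in GV (0.83, SE 0.14, adjusted p = 2.4e-06) and GV3h (1.15, SE 0.14, adjusted p = 3.4e-10), and in MII (0.59, SE 0.13, adjusted p = 2.2e-04), the last value being given after it was seen. Ago1, another Argonaute, rose in GV (1.56, SE 0.57, adjusted p = 0.0381) and in adult RiboMinus libraries (1.875, SE 0.46, adjusted p = 0.0051). In the dcKO 2 rose and 6 fell of 13, where 53.7% of all genes were called, with Tnrc6a at 1.59, Dgcr8, the partner of Drosha in microRNA processing, at 1.29, Ago3 at -1.95 and Tnrc6b at -1.50. At p20 the Dis3 cKO called Drosha (0.37) and Tnrc6c (-0.32), and the Exosc10 cKO Tnrc6a (0.62) and Ago3 (-0.68).

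Of 28 other piRNA and germ granule genes, 26 were tested in poly(A) libraries. The Dis3 cKO raised 2 and lowered 4 in GV, raised 2 and lowered 6 in GV3h, and raised 5 and lowered 7 in MII, where 21.9%, 38.6% and 42.1% of all genes were called, with medians of -0.01, -0.02 and -0.0044 beside 0.04, 0.07 and 0.16 for all genes. Piwil1, a PIWI protein, fell at each stage (-0.96 in GV, -1.43 in GV3h and -0.71 in MII) and in adult RiboMinus libraries (-0.75, SE 0.15, adjusted p = 0.0011). Dazl, an RNA-binding translational regulator of germ cells, rose in GV (0.65), GV3h (1.08, SE 0.13, adjusted p = 6.9e-10) and adult libraries (0.53). Rnf17, a tudor-domain germ granule protein, was called lower in GV and GV3h and in MII (-1.17, SE 0.14, adjusted p = 6.6e-11). The largest fitted changes of the list in MII were rises of Gpat2 (4.96, SE 1.01, adjusted p = 4.8e-05) and Wdr77 (4.40, SE 1.28, adjusted p = 0.0040), both of few reads. Gpat2 averaged 0.809 ± 1.215 CPM in the knockout (SD, n = 16) and 0.0134 ± 0.0379 in controls (SD, n = 8), and Wdr77 0.272 ± 0.429 CPM in the knockout with 0 in every control, so neither fitted fold is a bound. In adult RiboMinus libraries 1 of 25 rose and 4 fell, where 28.1% of all genes were called. Of 25 tested at p20, 0 were called in the Dis3 cKO, 3 fell in the Exosc10 cKO (Tdrd5, at -0.67, the most) and 8 rose and 13 fell in the dcKO, where 7.37%, 7.45% and 53.7% of all genes were called. There Piwil1 fell by 3.29 (SE 0.43, adjusted p = 1.1e-07) and Tex15 by 1.58, while Gpat2 rose by 1.49 and Btbd18 by 2.10.

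Oocyte siRNAs are made in part from pseudogenes that pair with protein-coding transcripts, and 5 such target genes were examined. The GV Dis3 cKO lowered Pdzd11 (-0.49, SE 0.12, adjusted p = 7.9e-04) and Kif4 (-0.40, SE 0.12, adjusted p = 0.0107). GV3h lowered Kif4 (-0.38) and MII lowered Rangap1 (-1.29, SE 0.39, adjusted p = 0.0055). These are 2, 1 and 1 of 5 genes, beside 21.9%, 38.6% and 42.1% of all genes called. The dcKO lowered 4 of 5, where 53.7% of all genes were called in either direction, with Pdzd11 at -0.98 and Ppp4r1 at -0.59, and the median of the 5 was -0.59 beside -0.01 for all genes. None of the 5 rose by the test in these comparisons.

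Genes whose pattern over the 12 group means was like that of each member were sought among 9216 genes, with each assay centred on its own mean. Pearson's r was 0.97 for Tdrd1 with Coro2a and 0.96 with Disc1, 0.97 for Tdrkh with Ncald, and 0.99 for Gtsf1 with Gm42553. It was 0.94 for Pld6 with Ccnd3 and 0.93 with Mdm1, 0.95 for Mov10l1 with Ppp1r12b and with Tns2, and 0.97 for Mael with Lzic and with Acot13. Piwil2 was most like Rab11fip3 (0.99) and Relt (0.98), Ddx4 like Tmx4 (0.98) and Vps33a (0.97), Ago2 like Cbfa2t2 (0.96) and Dcun1d3 (0.95), and Dicer1 like Cnot1 (0.93) and Fnip2 (0.88). Dicer1 had the lowest best match of the 10. None of these nearest genes was another member.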

How the data were processed

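Individual oocytes were sequenced in 71 poly(A) and 48 RiboMinus libraries, 119 in all. The authors deposited raw read counts per gene and library. Per the submitters' processing notes, cutadapt 2.5, FastQC 0.11.8, STAR 2.7.2a, SAMtools 1.9, HTSeq 0.9.1, R 3.5.1, DESeq2 1.24.0 and the mm10 build were used, with roles, strand use and annotation not given in the sources used here. The CUT&Tag files of the series were not used here.

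From these counts, edgeR 4.0.16 in R 4.3.3 gave TMM-scaled CPM and quasi-likelihood F tests after filterByExpr, with Benjamini-Hochberg adjustment over all genes tested and a threshold of 0.05. The 6 poly(A) groups shared a fit, the adult RiboMinus pair had its own, and the 4 p20 groups shared another. Comparisons between ages used all 6 RiboMinus groups. Each SE was derived from the fold change and its F value (|log2 fold change| over root F). DESeq2 1.42.0, ERCC scaling, no filter, a fit of only the groups compared, a replicate block, counts summed per title tag, and subsets of libraries were tried as alternatives. Scripts were tested on simulated data.

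The 10 genes and the other lists were chosen with earlier results of these data known. Named are the 10 genes, Dis3 and Exosc10, at most 2 genes a list, comparison and direction with the largest called changes, and the 2 genes most like each member among those averaging at least 5 CPM. Some of these are not reported here. Foxl2, Inha, Hsd17b1, the MII value of Tnrc6a and the GV and GV3h calls of Rnf17 fall outside that rule and were named after their values were seen. Gene names come from the RefSeq and gene ID tables.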

Additional observations from a re-analysis of the deposited data

Results flagged for a closer look

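In groups of 8 libraries, 90 sets of values (10 genes in each of 9 groups) were examined for a highest or lowest library set apart by a gap that is large against the group's range. Such a gap arises by chance in about 1 in 20 sets, and 9 were found. In poly(A) libraries, Gtsf1 in GV3h control 1 stood high at 363.5 CPM. In adult RiboMinus libraries, Tdrd1 in control AM1758_4 stood low at 631.1 CPM, and Piwil2 in Dis3 cKO oocyte AM1713_3 stood high at 14.28 CPM. In the p20 Dis3 cKO, library 1_2 stood high for Piwil2 at 38.41 CPM, and library 1_4 stood high for Mael at 93.04 CPM and low for Tdrkh at 57.25 CPM. In the p20 Exosc10 cKO, library 2_4 stood high for Gtsf1 at 203.2 CPM. In the dcKO, library 1_2 stood low for Dicer1 at 1181 CPM and library 2_2 high for Mov10l1 at 11.8 CPM.

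The Dis3 effect differed between stages or ages by edgeR's test of the difference for 3 of the genes. At MII against GV the difference was 0.9439 (log2) for Mael and -0.4632 for Dicer1. In adult against p20 oocytes it was -0.4986 for Tdrd1. These are 2 and 1 of the 10 genes, where 13.2% and 9.32% of all genes were called, near the background. The Mael call was lost without MII oocyte 15, the Dicer1 difference changed sign under ERCC scaling (0.14), and the Tdrd1 call was lost under ERCC scaling and with counts summed per tag.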

How the results depend on the processing

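Of 66 calls on the 10 genes over the 15 comparisons, DESeq2 kept 66 in direction and call, and it added Gtsf1 in the GV Dis3 cKO, Piwil2 from GV to MII in the Dis3 cKO, and Ago2, Dicer1 and Pld6 in the adult Dis3 cKO. ERCC scaling kept 47, ended 15 and turned 4: Pld6 from GV to MII in controls (-0.61) and in the Dis3 cKO (-0.22), Dicer1 in the MII against GV difference (0.14) and Mael in adult against p20 controls (-0.75). The number of genes called became 4 (from 7) for the MII Dis3 cKO, 4 (from 2) for the MII against GV difference, 6 (from 2) for the adult Dis3 cKO, 1 (from 0) for the p20 Dis3 cKO, 1 (from 2) for the Exosc10 cKO, 5 (from 8) for the dcKO against the Dis3 cKO, 10 (from 4) for adult against p20 and 0 (from 1) for the difference between ages. The percentage of all genes called moved too, in the same order, to 41.9% (from 42.1%), 30.1% (13.2%), 44.6% (28.1%), 6.095% (7.37%), 2.29% (7.45%), 36.9% (51.5%), 86.1% (19.1%) and 3.38% (9.32%). ERCC scaling also moved the share of higher genes among all calls from 61.95% to 35.3% in the GV Dis3 cKO, 64.8% to 89.7% in MII, 42.25% to 55.9% from GV to GV3h, 38.8% to 0.380% from GV to MII in controls, 39.2% to 1.56% in the Dis3 cKO, 70.5% to 97.7% for the MII against GV difference, 55.9% to 10.2% in the adult Dis3 cKO, 49.0% to 12.8% in the p20 Dis3 cKO, 50.5% to 73.1% for the dcKO against the Dis3 cKO and 45.6% to 0.484% for adult against p20. The median of all genes moved by -0.27, 0.36, 0.22, -1.85, -1.24, 0.61, -0.55, -0.31, 0.24 and -1.69 in these comparisons in the same order, and by -0.21 for the difference between ages. DESeq2 called 5 genes in the adult Dis3 cKO (2 by edgeR), with 31.5% of all genes. Counts summed per tag, with fewer samples a group, called 0 in the adult Dis3 cKO, 1 in the Exosc10 cKO, 0 in adult against p20 and 0 for the difference between ages, where it called 0 of 20190 genes, 0.832%, 1.04% and 0.307% of all genes. Without the filter, 1 gene was called in the MII against GV difference (5.39% of all) and 1 in the Exosc10 cKO (3.07%). Fitting only the groups compared called 3 in the p20 Dis3 cKO (Gtsf1, Tdrd1 and Tdrkh) and added Tdrd1 in the Exosc10 cKO and Gtsf1 in the GV Dis3 cKO, while the MII Dis3 cKO went from 7 to 5 by the loss of Mael and Mov10l1 (11.2%, 8.31%, 27.3% and 30.6% of all genes). Title numbers 1 to 8 alone, or leaving out MII Dis3 cKO oocyte 15, called 1 in the MII against GV difference (11.04% and 15.5% of all). Tag 1 alone and tag 2 alone each called 1 in the Exosc10 cKO (3.825% and 2.66% of all), and tag 2 alone called 4 of 7 in the dcKO and 3 of 8 in the dcKO against the Dis3 cKO, where the share of all genes fell from 53.7% to 24.8% and from 51.5% to 25.55%. AM1713 alone called 5 in the adult Dis3 cKO (37.4% of all). Summed counts, subsets and left-out libraries also entered fewer samples. The cause of these moves was not tested. The AM1713 and AM1757 subsets, numbers 9 to 16 and the removal of libraries other than oocyte 15 were chosen after seeing the data. Among libraries of different groups with the same title number, 25 of 142 poly(A) pairs and 13 of 48 p20 pairs had a correlation of deviations over 0.1. Pairs with unlike numbers were not examined, so this does not decide whether the numbers pair the libraries. With the number as a replicate block, 59 of 59 calls were kept, and the counts called were 4, 6 and 7 in the 3 poly(A) stages, 0 for GV3h against GV, 8 and 7 for MII against GV, 2 for the MII against GV difference, 0, 2 and 7 in the p20 knockouts and 8 and 8 for the dcKO against each knockout. Low counts limit Mov10l1 and Piwil2 in MII eggs, where single libraries held as few as 14 and 0 reads in controls. They limit Piwil2 at the other poly(A) stages too. Its lowest library held 3 reads in GV controls, 1 in the GV Dis3 cKO, 13 in GV3h controls and 8 in the GV3h Dis3 cKO.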
